A study of Homo sapiens with 24 samples.

Results

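Metallothionein genes, the zinc exporter gene SLC30A1 and the gene of the zinc-sensing factor MTF1 were followed in U2OS cells, a human osteosarcoma cell line, during oxidative stress. The 8 genes were MT1E, MT1F, MT1G, MT1M, MT1X, MT2A, SLC30A1 and MTF1, taken by their symbols from the 60308 genes of the exon count table and, for the 6 of them that have an entry there, from the 37473 genes of the intron count table. Cells received 0.12% DMSO for 2 h (Ctrl), 500 µM sodium arsenite (NaAsO2) for 60 min, a 1 h pre-treatment with 6 µM RK-33, a small molecule that blocks the ATPase of the RNA helicase DDX3, or RK-33 and then NaAsO2 at the same doses (co-treated). Per the study's methods, the time of DMSO in Ctrl was matched to that of RK-33 in treated cells. Whether the cells given NaAsO2 alone also received DMSO is not given in the sources used here. After removal of nuclei, each lysate was spun into a soluble fraction and a pellet, the insoluble fraction, which is enriched for RNP granules. Each of the 8 groups of treatment and fraction held 3 libraries of rRNA-depleted RNA, 24 in all, and all groups were cells of the same line.

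Metallothioneins are small cysteine-rich proteins that bind zinc and copper and buffer these metals in the cell. MTF1 is a zinc finger protein that senses free zinc and binds metal response elements in the promoters of metallothionein genes and of SLC30A1, which encodes ZnT1, a transporter of the plasma membrane that carries zinc out of the cell. Arsenite binds thiols of proteins, among them those that hold zinc, and is a known inducer of metallothionein mRNAs.

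The promoters of 3 of the genes are shown because MTF1 binds short elements in promoters of its targets. Capitals mark matches of TGCACNC or TGCGCNC on either strand, 2 spellings of the core of the metal response element, in the 250 bases before the start of each gene, written 5′ to 3′ on the strand of the gene. The sequences are those of RefSeq on GRCh38.p14, where the windows lie at chr16:56608334-56608583 on the plus strand for MT2A, at chr16:56682220-56682469 on the plus strand for MT1X and at chr1:211579162-211579411 on the minus strand for SLC30A1.
MT2A: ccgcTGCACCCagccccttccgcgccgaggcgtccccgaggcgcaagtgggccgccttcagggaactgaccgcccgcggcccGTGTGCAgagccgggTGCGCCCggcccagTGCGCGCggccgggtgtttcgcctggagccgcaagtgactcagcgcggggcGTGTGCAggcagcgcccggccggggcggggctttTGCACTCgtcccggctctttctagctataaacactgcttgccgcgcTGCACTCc
MT1X: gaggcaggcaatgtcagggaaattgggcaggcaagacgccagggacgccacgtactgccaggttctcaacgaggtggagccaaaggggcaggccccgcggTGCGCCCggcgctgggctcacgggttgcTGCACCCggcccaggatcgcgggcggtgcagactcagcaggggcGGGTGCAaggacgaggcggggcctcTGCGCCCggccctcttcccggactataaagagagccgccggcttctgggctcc
SLC30A1: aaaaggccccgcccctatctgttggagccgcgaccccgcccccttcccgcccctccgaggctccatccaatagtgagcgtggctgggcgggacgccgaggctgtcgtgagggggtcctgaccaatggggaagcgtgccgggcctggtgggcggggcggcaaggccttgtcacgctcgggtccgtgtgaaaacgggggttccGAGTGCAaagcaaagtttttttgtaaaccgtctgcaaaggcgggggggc
In windows of 300 bases, which add 50 bases after the start, MT2A had 8 matches, MT1X had 4, SLC30A1 had 2 and MTF1 had 0. No match overlapped another. Among the 35116 windows of the reference, 29.6% held at least 1 match and the median was 0. As many matches as in MT2A were found in 0.0199% of windows, as many as in MT1X in 0.601%, and as many as in SLC30A1 in 8.6%. The promoter sequences of MT1E, MT1F, MT1G and MT1M were not used here. A match describes the letters of the window and is not a measured binding site, and MT1H, which is no member, also had 8 matches. MT1H gave 20 exon counts over the 24 libraries, all of them in the 12 libraries with NaAsO2.

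The metallothionein genes lie side by side on chromosome 16 (GRCh38): MT2A at chr16:56608584-56609497, MT1E at chr16:56625475-56627112, MT1M at chr16:56632659-56633981, MT1F at chr16:56657731-56660698, MT1G at chr16:56666730-56668065 on the minus strand, and MT1X at chr16:56682470-56684196. SLC30A1, at chr1:211571568-211579161, and MTF1, at chr1:37809574-37859592, lie on the minus strand of chromosome 1. Only uniquely aligned fragments were counted, which could split near-identical genes unevenly. In the reference transcripts, 0 windows of 100 bases of the 6 member metallothioneins were found without a difference in any other of the 21 metallothionein genes and pseudogenes compared. Counting ignored strand, and 321 of the 1727 exon bases of MT1X (18.6%) are shared with a gene without a name, ENSG00000259827, on the same strand, so fragments in that stretch cannot be told apart or were left out. MT2A and MT1X have no entry in the intron table, which holds the bases of a gene outside its merged exons.

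The libraries held between 8627294 and 15376554 exon counts and between 1621536 and 6092652 intron counts. Replicate 3 of the NaAsO2 insoluble fraction stood apart, with 5.79% of its exon counts on RN7SL1, against 0.426% to 1.23% in the other 11 insoluble libraries and 7.51% to 15.5% in the soluble libraries. Replicate 3 of the co-treated insoluble and of the RK-33 soluble fraction also differed from their group mates, with a chi-square per degree of freedom of 23.1 to 32.4 against 3.19 and 4.13 between the other pair of each group. Member results that lose or gain a call without one of these 3 libraries are given with and without it. Of the 7 bone and mesenchymal markers, 6 were present in every library, among them RUNX2 at 45.4 to 89.9 CPM (counts scaled to the depth of the library), while COL1A2 lay between 0 and 2.25 CPM. Markers of blood, epithelial, liver and endothelial cells did not pass 7.27 CPM. The arsenite label was met by HMOX1, the heme oxygenase of the oxidative stress response, which rose after NaAsO2 by 1.90 in soluble and 1.77 in insoluble libraries (log2 fold change), with an adjusted p of 1.78e-08 and 1.08e-08 (edgeR). The heat shock genes HSPA1A (1.68 and 1.19) and DNAJB1 (0.91 and 1.13) also passed the test.

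Of the 8 genes, 6 were expressed well enough to be tested, at a mean of at least 1 CPM. MT2A gave between 2028 and 23001 exon counts in a library, MT1E between 568 and 11164, MT1X between 69 and 6396, and MT1G between 0 and 598. SLC30A1 gave between 4445 and 16604 counts and MTF1 between 379 and 1512. MT1F and MT1M were close to 0: MT1F had 15 counts in all, at most 3 in a library, and MT1M had 7, at most 1 in a library. All of these came from the 12 libraries of cells that received NaAsO2, where 10 libraries held a fragment of MT1F and 7 held one of MT1M. The 12 libraries without NaAsO2 held 0 counts of either gene, and since 3 counts amount to 0.202 to 0.356 CPM, no fold change was calculated. The introns of MT1M had 15 counts, also all in NaAsO2 libraries, and those of MT1F had 2. The 15 other metallothionein genes and pseudogenes of the exon table gave 283 counts in all, 0.0928% of all metallothionein counts, and 12 of them had any count, MT1B, MT1DP, MT1H, MT1HL1, MT1IP, MT1JP, MT1L, MT1P1, MT1P3, MT1XP1, MT2P1 and MT3. Of these, MT1H (20 counts), MT1B (13) and MT1JP (13) also had exon counts only in libraries with NaAsO2, as had MT1DP, MT1IP and MT1P3 with at most 2 each.

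MT2A was the most abundant of the 6 metallothioneins per length in every group. In the Ctrl soluble fraction its level was 752 ± 72.1 CPM per kb of exon (SD, n = 3), against 206 ± 20.8 for MT1E, 15.8 ± 3.73 for MT1X and 0.710 ± 0.449 for MT1G. SLC30A1, at 133 ± 19.3 CPM per kb, stood between MT1E and MT1X, and MTF1, at 5.68 ± 0.146 CPM per kb, between MT1X and MT1G. In the co-treated soluble fraction the order was MT2A at 1644 ± 74.1, MT1E at 713 ± 19.1, MT1X at 255 ± 5.09, SLC30A1 at 209 ± 17.6, MT1G at 53.3 ± 3.90 and MTF1 at 5.18 ± 0.398 CPM per kb. MT1X and MT1G had thus passed genes that stood above them in Ctrl.

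**Figure D1:**
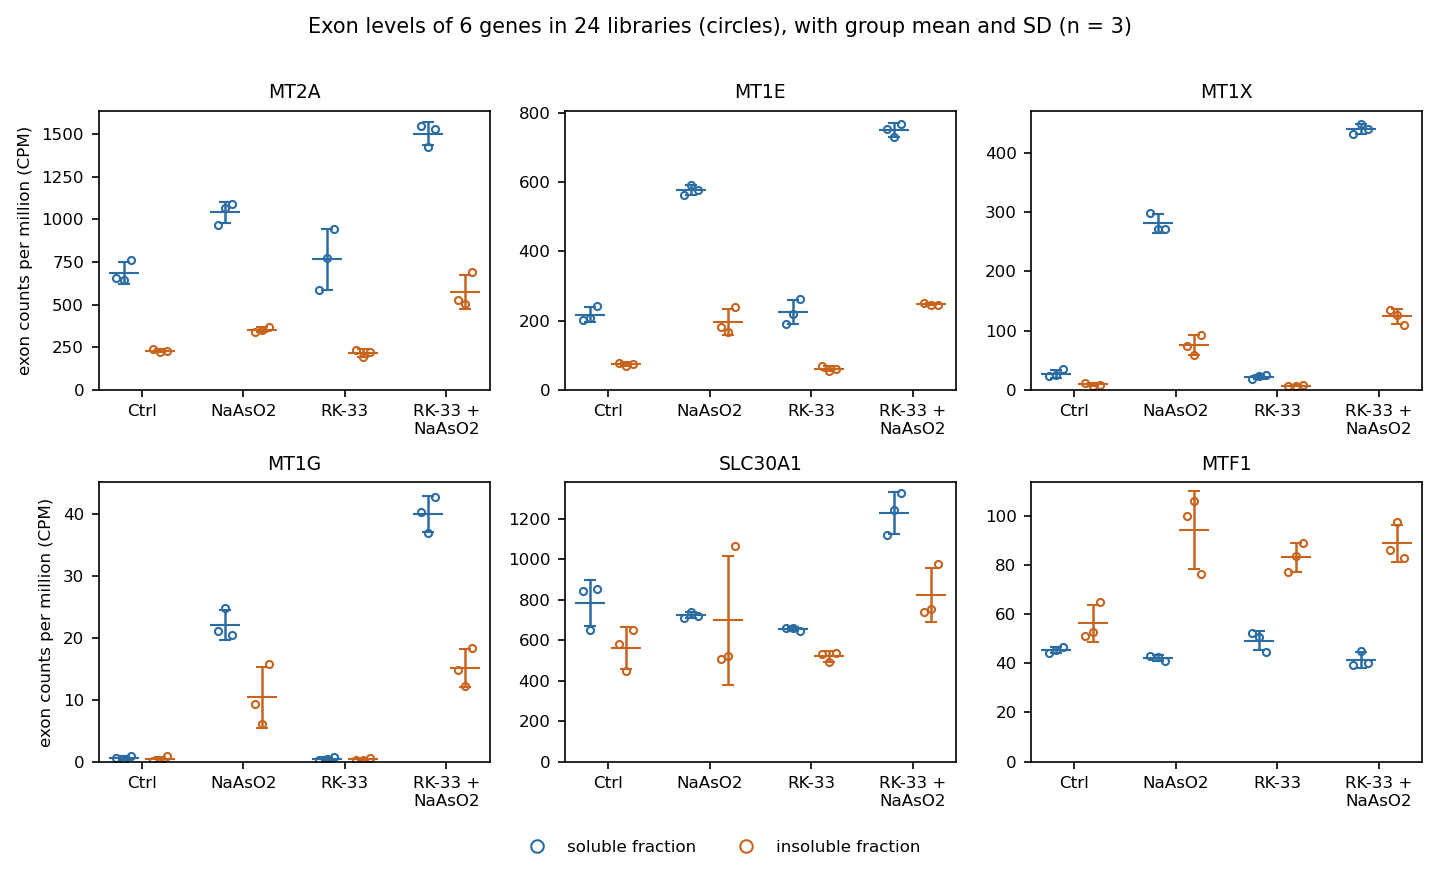
Exon levels of 6 genes in CPM (y axes start at 0) for the 4 treatments, with circles for single libraries, horizontal bars for the mean and vertical bars for the SD of 3 libraries. MT1X and MT1G stand near the bottom of their panels without NaAsO2 and reach 440.4 and 40.01 CPM on average in the co-treated soluble fraction, while the soluble libraries of MTF1 stay between 39.1 and 52.3 CPM.

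NaAsO2 alone raised 3 of the 6 tested genes by at least 2-fold in both fractions, MT1G, MT1X and MT1E, and raised the most abundant one, MT2A, by 1.52-fold (soluble) and 1.54-fold (insoluble). The exporter SLC30A1 and the factor MTF1 did not pass the test in the soluble fraction. Against these 3 of 6 members, 0.492% of the 17666 tested genes rose by the same thresholds in the soluble fraction and 5.61% in the insoluble fraction (at least 2-fold with an adjusted p under 0.05, edgeR's quasi-likelihood test). Among the 3 members, MT1G entered the test only through libraries with NaAsO2. Its group means were 0.326 to 0.533 CPM without NaAsO2 and 10.4 to 40.01 CPM with it, so its call is tied to its entry.

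MT1G was barely detected in Ctrl. Its soluble levels in replicates 1 to 3 were 0.559, 0.184 and 0.856 CPM in Ctrl and 21.0, 24.8 and 20.4 CPM after NaAsO2, and its insoluble levels were 0.108, 0 and 0.869 CPM in Ctrl and 9.32, 6.04 and 15.8 CPM after NaAsO2. All NaAsO2 libraries stood above all Ctrl libraries of the same fraction. The log2 fold change was 5.38 ± 0.462 (SE) in the soluble fraction and 4.87 ± 0.522 in the insoluble one, with adjusted p-values of 1.82e-07 and 4.39e-07. The Ctrl libraries held 16 exon counts in the soluble fraction and 10 in the insoluble one, 9 of them in replicate 3 of the latter, so the size of this change rests on few counts. The insoluble change was 4.52 without replicate 3 of the NaAsO2 insoluble fraction.

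MT1X was the gene with the next larger change. It stood at 22.5, 24.6 and 34.6 CPM in the Ctrl soluble fraction and at 299, 272 and 272 CPM after NaAsO2. Its insoluble levels were 11.7, 7.06 and 8.69 CPM in Ctrl and 74.2, 59.0 and 93.0 CPM after NaAsO2. The groups did not overlap in either fraction, and the lowest NaAsO2 library was far above the highest Ctrl library. The change was 10.3-fold in the soluble fraction (log2 3.37, 95% interval 2.98 to 3.76, adjusted p = 2.04e-10), where MT1X had the lowest adjusted p of all genes tested. It was 8.24-fold in the insoluble fraction (log2 3.04, interval 2.63 to 3.45, adjusted p = 3.81e-10).

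MT1E, already abundant in Ctrl, rose from 203, 207 and 242 CPM to 561, 591 and 576 CPM in the soluble fraction. Its insoluble level rose from 78.8, 69.2 and 74.9 CPM to 180.3, 168 and 238 CPM. Again all NaAsO2 libraries were above all Ctrl libraries. The change was 2.65-fold in the soluble fraction (log2 1.41 ± 0.132, adjusted p = 6.65e-07) and 2.63-fold in the insoluble fraction (log2 1.39 ± 0.134, adjusted p = 1.0e-07).

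MT2A rose less on the log scale. Its soluble levels were 657, 642 and 763 CPM in Ctrl and 969, 1066 and 1089 CPM after NaAsO2, and its insoluble levels were 238, 222 and 229 CPM in Ctrl and 341, 351 and 367 CPM after NaAsO2. The groups did not overlap, and the log2 fold changes of 0.60 (interval 0.31 to 0.89) and 0.62 (0.32 to 0.92) had adjusted p-values of 0.00747 and 0.00163 but stayed under 2-fold. The soluble one missed the adjusted p threshold without replicate 1 or 2 of Ctrl, with at most 0.0607. When the 6 metallothioneins were added up, their sum rose from 932 ± 94.1 to 1921 ± 61.0 CPM in the soluble fraction and from 313 ± 15.5 to 634 ± 69.9 CPM in the insoluble fraction. The sum was 2.06-fold and 2.02-fold higher (log2 1.04 and 1.02, adjusted p = 3.35e-05 and 6.83e-06). Both values are close to 2-fold and fell under it in part when single libraries were left out: the first to 0.93 without replicate 2 of the Ctrl soluble fraction and to 0.98 without replicate 1 of the NaAsO2 insoluble, any of the 3 co-treated soluble, replicate 3 of the RK-33 insoluble or replicate 2 of the RK-33 soluble libraries, the second to 0.99 without replicate 3 of the NaAsO2 insoluble fraction and to 0.98 without replicate 2 of the Ctrl insoluble fraction. In bulk libraries, a change in the RNA of each cell and a change in the number of cells that express a gene cannot be told apart.

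The make-up of the metallothionein pool changed with NaAsO2. MT2A held 74.4%, 73.5% and 73.3% of the summed metallothionein CPM in the Ctrl soluble libraries and 52.4%, 54.6% and 55.6% after NaAsO2. MT1X went from 2.90% ± 0.391 to 14.7% ± 1.31, MT1E from 23.3% ± 0.347 to 29.998% ± 0.504 and MT1G from 0.0556% ± 0.0313 to 1.15% ± 0.115 (SD, n = 3). The shares are parts of a whole and were not tested. Of the insoluble pool, MT2A held 73.3% ± 0.991 in Ctrl and 56.0% ± 4.39 after NaAsO2, while MT1X held 2.90% ± 0.602 and 11.8% ± 1.51. RK-33 alone left MT2A at 75.5% ± 1.59 of the soluble and 75.9% ± 0.269 of the insoluble pool.

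**Figure D2:**
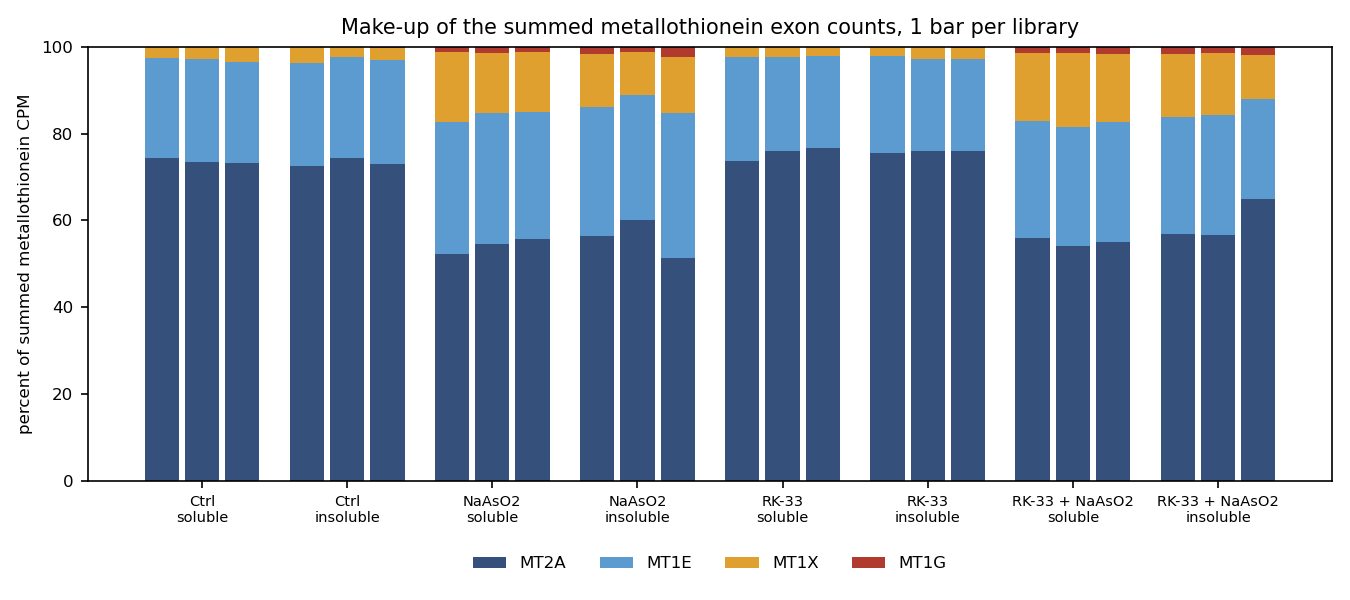
Percent of the summed metallothionein exon CPM held by MT2A, MT1E, MT1X and MT1G, with 1 stacked bar per library and 3 libraries per group. MT2A fills 72.5% to 76.7% of the bars of libraries without NaAsO2 and 51.4% to 64.9% of those with NaAsO2, where MT1X takes 10.1% to 17.01%.

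The 2 other members behaved differently. SLC30A1 stood at 846, 653 and 853 CPM in the Ctrl soluble fraction and at 712, 739 and 718 CPM after NaAsO2, and the groups overlapped. Its log2 fold change was -0.12 (interval -0.54 to 0.30, adjusted p = 0.742), so that a rise of 2-fold lay outside the interval. SLC30A1 in the insoluble fraction stood at 584, 448 and 651 CPM in Ctrl and at 509, 521 and 1068.5 CPM after NaAsO2. The high value is that of the replicate 3 described above, and the log2 fold change of 0.32 (adjusted p = 0.213) was -0.05 (adjusted p = 0.774) without it.

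MTF1 stood at 44.2, 45.5 and 46.6 CPM in the Ctrl soluble fraction and at 42.8, 42.7 and 40.9 CPM after NaAsO2, a log2 fold change of -0.11 (interval -0.37 to 0.15, adjusted p = 0.598). Insoluble libraries of MTF1 stood at 51.1, 52.7 and 64.7 CPM in Ctrl and at 100.04, 106 and 76.1 CPM after NaAsO2. There the groups did not overlap and MTF1 rose by 0.75 on the log2 scale (interval 0.49 to 1.00, adjusted p = 7.77e-05). The replicate 3 that stood apart was the lowest of the NaAsO2 libraries, and the change was 0.94 (adjusted p = 4.83e-08) without it.

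After RK-33 alone, 0 of the 6 tested members passed both thresholds in either fraction (edgeR), where 0.515% of all tested genes in the soluble fraction and 1.86% in the insoluble one passed them in either direction. The log2 fold changes lay between -0.30 and 0.16 in the soluble and between -0.42 and 0.56 in the insoluble fraction. At an unadjusted p under 0.05, 0 members passed in the soluble fraction, where 17.6% of all genes did, and 1 in the insoluble one, where 26.6% did. DESeq2 also called 0 members in each fraction. The summed metallothioneins differed from Ctrl by 0.12 (interval -0.16 to 0.40) in the soluble and -0.14 (-0.42 to 0.14) in the insoluble fraction.

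MTF1 passed the test on adjusted p alone. It stood at 77.0, 83.6 and 88.7 CPM in the insoluble fraction after RK-33, above all 3 Ctrl libraries, a log2 fold change of 0.56 (interval 0.31 to 0.82, adjusted p = 0.00303). In the soluble fraction its values of 52.3, 50.5 and 44.7 CPM overlapped with those of Ctrl. MT1X, at 17.99, 23.1 and 25.1 CPM in the soluble and 6.26, 6.56 and 7.72 CPM in the insoluble fraction, overlapped with Ctrl in both.

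**Figure D3:**
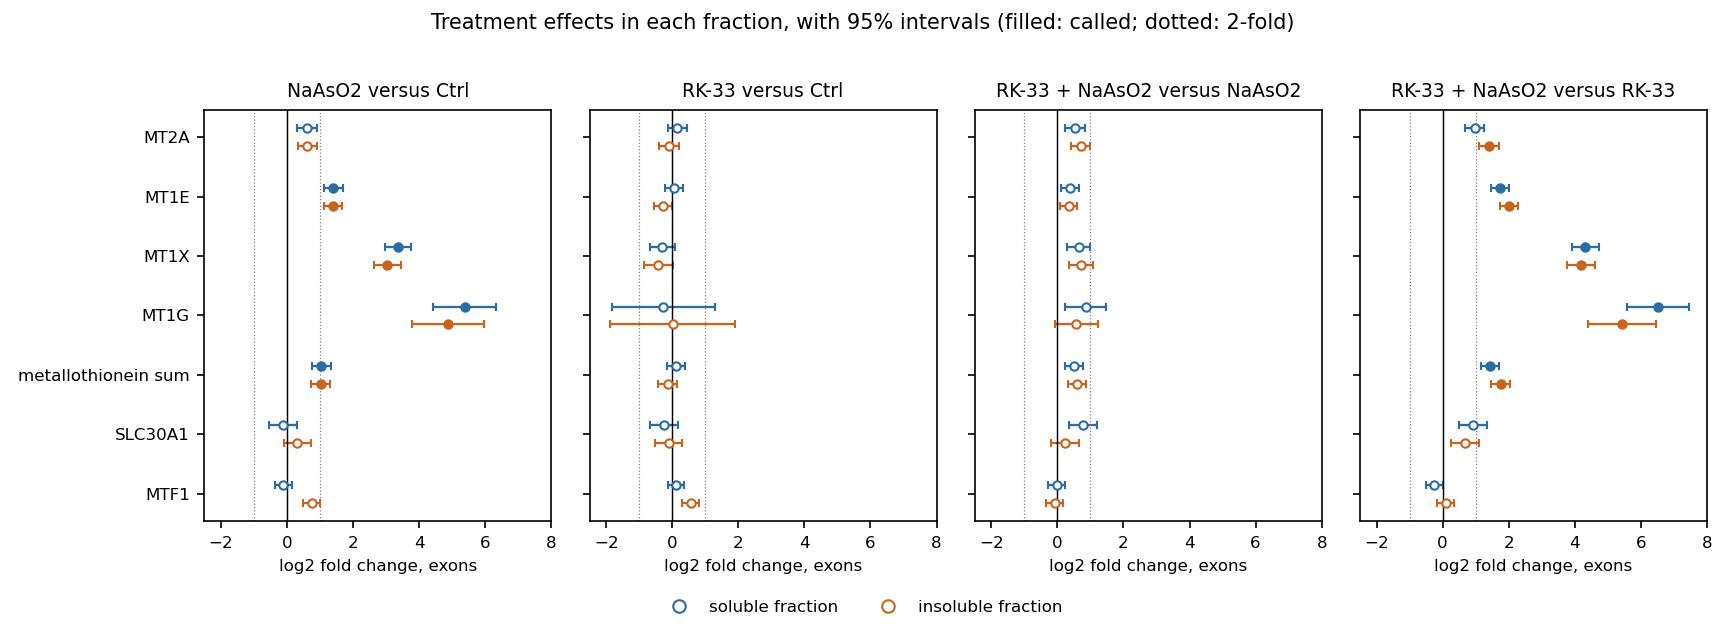
Log2 fold changes of exon counts for the 4 treatment comparisons in the soluble and insoluble fractions, with 95% intervals, filled points for values past both thresholds and dotted lines at 2-fold. In the comparisons that add NaAsO2, MT1G, MT1X and MT1E lie right of the dotted line and the points of SLC30A1 and MTF1 do not, while every interval of the comparison of RK-33 with Ctrl stays left of that line except the wide ones of MT1G.

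Adding NaAsO2 to cells that had received RK-33 raised the same 3 metallothioneins in the soluble fraction, and MT2A as the fourth in the insoluble fraction. Among all tested genes, 1.83% and 1.23% rose past the thresholds in these comparisons. MT1G, which entered the test only through libraries with NaAsO2, is again counted here. In co-treated soluble libraries MT1X stood at 431, 449 and 441 CPM, MT1E at 753, 728 and 768 CPM, MT2A at 1551, 1425 and 1531 CPM and MT1G at 40.3, 36.9 and 42.8 CPM. Every one of these libraries was above all libraries of the other 3 treatments in the same fraction.

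MT1X rose 19.95-fold against RK-33 alone in the soluble fraction (log2 4.32 ± 0.197, adjusted p = 2.44e-12) and 18.1-fold in the insoluble fraction (log2 4.18 ± 0.205, adjusted p = 1.21e-11). MT1E rose 3.35-fold and 4.01-fold, and MT1G rose by 6.51 and 5.42 on the log2 scale. MT2A rose by 0.97 (interval 0.67 to 1.27, adjusted p = 0.000148) in the soluble fraction and by 1.41 (1.11 to 1.71, adjusted p = 1.16e-06) in the insoluble fraction. The soluble value passed 2-fold when replicate 3 of RK-33 (1.15) or replicate 2 of the co-treated cells (1.01) was left out.

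SLC30A1 stood at 1119.8, 1243 and 1326 CPM in the co-treated soluble fraction, above all other libraries of that fraction. Against RK-33 alone (660.3, 660.1 and 644 CPM) it rose 1.88-fold in the soluble fraction (log2 0.91, interval 0.49 to 1.33, adjusted p = 0.0107, and 0.0602 without replicate 3 of the co-treated soluble fraction). Its insoluble levels were 740.2, 754 and 976 CPM in co-treated cells and 529.7, 491 and 538 CPM after RK-33 (log2 0.66, interval 0.24 to 1.09, adjusted p = 0.049999, and 0.67 with an adjusted p of 0.000307 without replicate 3 of the NaAsO2 insoluble fraction, but 0.52 with an adjusted p of 0.160 without replicate 3 of the co-treated insoluble fraction). MTF1 differed by -0.25 (adjusted p = 0.353) in the soluble and 0.09 (adjusted p = 0.730) in the insoluble fraction.

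Co-treated cells were also compared with cells that received NaAsO2 alone, which asks what RK-33 added to the stress. Levels are shares of the counts of a library, so differences between treatments are not amounts of RNA per cell. With spike-in scaling and the fractions combined, the study reported less cytoplasmic RNA in co-treated than in NaAsO2 cells. None of the 6 tested members was higher by 2-fold or more, where 2.41% of all tested genes in the soluble fraction and 3.11% in the insoluble one were. At an unadjusted p under 0.05, 5 members passed in the soluble fraction, against 22.4% of all genes, and 3 in the insoluble one, against 32.0%, and DESeq2 with the same thresholds called 0 in each. Smaller differences passed the test on adjusted p alone. SLC30A1 in the soluble fraction was 1.70-fold higher (log2 0.77, interval 0.34 to 1.19, adjusted p = 0.0264), MT1X 1.57-fold (log2 0.65, adjusted p = 0.0242), MT2A 1.44-fold (log2 0.53, adjusted p = 0.0279) and the metallothionein sum 1.42-fold (log2 0.51, adjusted p = 0.0248). MT1E, at a log2 fold change of 0.38, and MT1G, at 0.86, had adjusted p-values of 0.0811 and 0.0869. Leaving out any of the 3 NaAsO2 soluble libraries took MT1X, MT2A, SLC30A1 and the sum above an adjusted p of 0.05, to at most 0.121, as did leaving out replicate 3 of the co-treated soluble fraction for all but MT1X.

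MT1X in the insoluble fraction stood at 135, 127 and 110.1 CPM in co-treated cells, above the 3 NaAsO2 libraries given before, and MT2A at 529.8, 503 and 691 CPM. MT1X was 1.65-fold (log2 0.72, adjusted p = 0.00904) and MT2A 1.63-fold (log2 0.70, adjusted p = 0.00308) higher than after NaAsO2 alone. Fitted on the compared groups alone, these had adjusted p-values of 0.292 and 0.272, and MT1X had 0.0526 without replicate 1 of the co-treated insoluble fraction. With the replicate number as a block in these 2 groups, MT1X was 0.75 (adjusted p = 0.0515), MT2A 0.70 (adjusted p = 0.0544) and the metallothionein sum 0.59 (adjusted p = 0.0601). MT1E stood at 250.1, 244 and 245 CPM (log2 0.34, adjusted p = 0.0816) and MT1G at 14.7, 12.2 and 18.4 CPM (log2 0.57, adjusted p = 0.209). SLC30A1 differed by 0.24 (adjusted p = 0.436), and by 0.63 (adjusted p = 0.00330) without replicate 3 of the NaAsO2 insoluble fraction and 0.32 (adjusted p = 0.285) with the block. MTF1, at 86.0, 97.3 and 82.8 CPM, overlapped with NaAsO2 alone.

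Whether NaAsO2 acted differently with and without RK-33 was tested as the difference of the 2 NaAsO2 effects. In the insoluble fraction the effect of NaAsO2 was larger with RK-33 for MT1X by 1.14 (log2, interval 0.57 to 1.70, adjusted p = 0.00911), the only member past the thresholds, where 2.48% of all tested genes were higher by them. The differences of 0.79 for MT2A (adjusted p = 0.0135), 0.61 for MT1E (adjusted p = 0.0359) and 0.74 for the sum (adjusted p = 0.0142) passed the test under 2-fold. For MTF1 the NaAsO2 effect was smaller with RK-33, by -0.65 (interval -1.01 to -0.30, adjusted p = 0.0167). MT1X dropped under 2-fold when replicate 2 of the NaAsO2 insoluble fraction (0.99) or replicate 1 of the Ctrl insoluble fraction (0.93) was left out. Fitted on the compared groups alone, none of these 5 differences passed the test, with adjusted p-values of 0.0731 for MT1X, 0.0852 for MT2A, 0.170 for MT1E, 0.0859 for the sum and 0.116 for MTF1. MT1E also missed the threshold without any 1 of 12 libraries (adjusted p of at most 0.0985) and MTF1 without replicate 1 of the Ctrl insoluble fraction (0.0537).

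In the soluble fraction 0 members passed both thresholds for this difference, against 0.917% of all tested genes that were higher. At an unadjusted p under 0.05, 2 members passed, against 17.6% of all genes, and DESeq2 called 1. MT1X, at 0.95 (interval 0.43 to 1.46), had an adjusted p of 0.0470, and SLC30A1, at 1.03 (0.43 to 1.62), had one of 0.0619. The call of SLC30A1 changed with the fit: it passed both thresholds with DESeq2 (1.00, adjusted p = 0.0227), with edgeR's likelihood ratio test (1.03, adjusted p = 0.0225) and on the compared groups alone (1.09, adjusted p = 0.000113). It also passed them when 1 of 9 libraries was left out: any of the NaAsO2 insoluble libraries, replicate 3 of the Ctrl insoluble, 2 of the Ctrl soluble, 2 or 3 of the co-treated insoluble, 1 of the co-treated soluble or 3 of the RK-33 insoluble fraction, with values of 1.02 to 1.21. The lowest of these adjusted p-values, 0.000250, came without replicate 3 of the NaAsO2 insoluble fraction. MT1X passed 2-fold, at 1.01 to 1.08, without replicate 1 of the NaAsO2 insoluble, 2 of the Ctrl soluble, 2 of the co-treated insoluble, 1 of the co-treated soluble, 3 of the RK-33 insoluble or 2 of the RK-33 soluble fraction.

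Intron counts come from fragments outside all merged exons, here without regard to strand, and can stem from unspliced RNA, excised introns or other transcripts. They gave a different picture for SLC30A1. Intron values are in CPM of all intron counts of a library. In the soluble fraction the SLC30A1 introns, 1701 bases, stood at 15.1, 16.7 and 16.3 CPM in Ctrl and at 102, 83.7 and 91.4 CPM after NaAsO2. Their insoluble levels were 12.3, 7.64 and 7.07 CPM in Ctrl and 40.7, 28.8 and 42.2 CPM after NaAsO2. The groups did not overlap in either fraction, while the exon counts of the same gene did. The intron change was 5.76-fold in the soluble fraction (log2 2.53 ± 0.201, adjusted p = 9.42e-10) and 4.12-fold in the insoluble fraction (log2 2.04 ± 0.208, adjusted p = 9.74e-08). Whether exons and introns differed in their change was not tested.

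The introns of MT1E rose from 55.1, 49.1 and 53.9 CPM to 484, 391 and 502 CPM in the soluble fraction, 8.69-fold (log2 3.12 ± 0.177, adjusted p = 4.41e-13). The introns of MT1G rose from 0.904, 0.372 and 0.362 CPM to 61.2, 56.4 and 63.7 CPM (log2 6.65, adjusted p = 9.42e-10). In the insoluble fraction the changes were 3.31 for MT1E and 6.59 for MT1G, the latter 5.91 without replicate 3 of the NaAsO2 insoluble fraction. The introns of MTF1 stood at 42.5, 36.8 and 29.3 CPM in Ctrl and at 38.3, 29.2 and 30.01 CPM after NaAsO2 in the soluble fraction (log2 -0.17, adjusted p = 0.638), and changed by -0.35 (adjusted p = 0.116) in the insoluble fraction. Of the 4 members whose introns were tested, 3 thus rose past the thresholds in each fraction, where 0.925% of the 17406 introns tested rose in the soluble fraction and 10.1% in the insoluble one. The introns of MT1G entered the test only through libraries with NaAsO2. Their group means were 0.206 to 0.546 CPM without NaAsO2 and 25.4 to 71.1 CPM with it, so their call is tied to their entry.

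**Figure D4:**
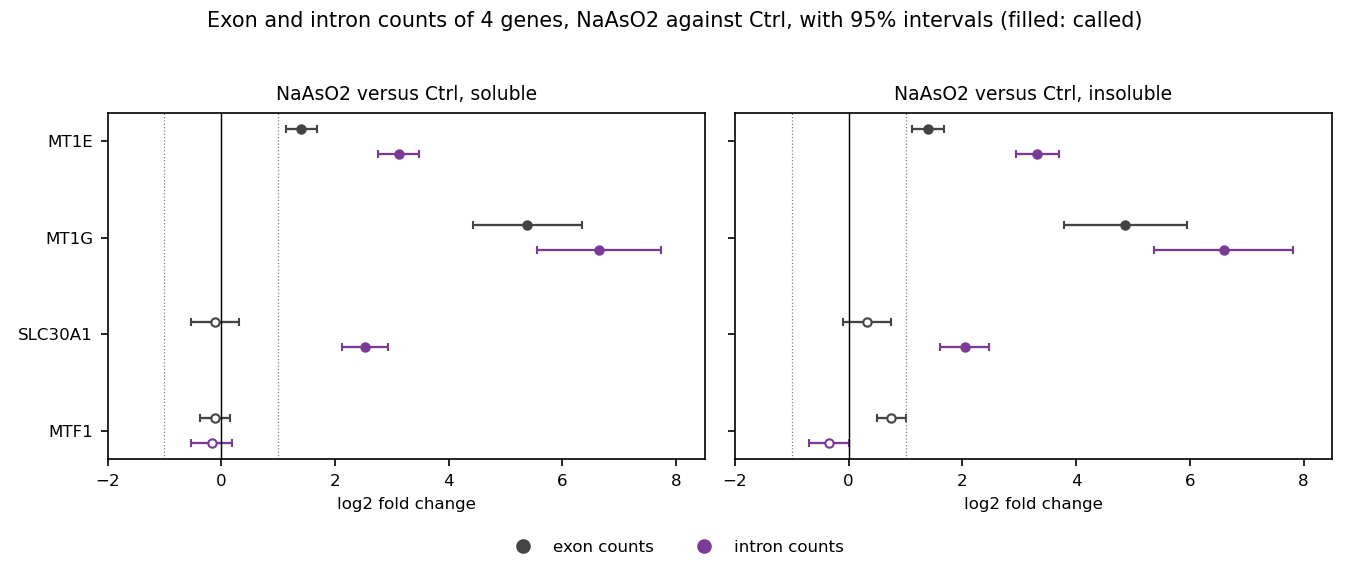
Log2 fold changes of exon and intron counts after NaAsO2 in each fraction for the 4 genes with tested introns, with 95% intervals and filled points for values past both thresholds. For SLC30A1 the intron points lie at 2.53 and 2.04 and the exon points at -0.12 and 0.32, while for MTF1 neither kind passes 2-fold, though its introns in the insoluble fraction fell by 1.14 when scaled like exons. That scale also carries the lower intron share of whole NaAsO2 insoluble libraries.

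With RK-33 as the background, NaAsO2 raised the same 3 sets of introns: those of SLC30A1 by 2.64 in the soluble fraction and 2.45 in the insoluble one, those of MT1E by 2.92 and 3.10 and those of MT1G by 6.99 and 7.04 (log2). Among all introns tested, 8.81% and 9.73% rose by the thresholds. The introns of MT1G, which entered the test only through libraries with NaAsO2, are again counted here. The introns of MTF1 fell by 0.51 (adjusted p = 0.0223) and 0.49 (adjusted p = 0.0277), under 2-fold, and each missed the threshold when single libraries of the compared groups were left out (adjusted p of at most 0.0733 and 0.104), the first also when scaled like exons (-0.34). RK-33 alone changed the introns of the 4 genes by -0.11 to 0.43, and no adjusted p was under 0.323. Between co-treated and NaAsO2 cells, the introns of SLC30A1 in the insoluble fraction were 1.63-fold higher in co-treated cells (log2 0.70, adjusted p = 0.00487), and the other 7 differences did not pass the test.

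The share of introns in all counts of a gene moved with these changes. For SLC30A1 it was 0.547%, 0.630% and 0.561% in the Ctrl soluble fraction and 2.96%, 2.86% and 2.47% after NaAsO2. For MT1E it was 7.76%, 5.55% and 6.17% in Ctrl and 15.5%, 14.6% and 14.8% after NaAsO2. For MTF1 it went the other way in the insoluble fraction, from 23.99%, 19.5% and 15.8% in Ctrl to 7.32%, 4.24% and 7.36% after NaAsO2. The intron share of the whole library also differed between groups, with 17.7% to 22.3% in the Ctrl soluble and 13.7% to 18.9% in the NaAsO2 soluble libraries. In the insoluble fraction it was 30.5% to 36.3% in Ctrl and 17.2% to 24.3% after NaAsO2, without overlap. Scaled like the exon counts, the intron changes after NaAsO2 were 2.18 and 1.30 for SLC30A1, 2.75 and 2.58 for MT1E, and 6.29 and 5.99 for MT1G in the soluble and insoluble fractions, while the introns of MTF1 in the insoluble fraction fell by 1.14 (adjusted p = 0.000810). The lower intron share of whole NaAsO2 libraries enters these values, and its part was not tested.

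Nuclear RNA in the fractions was followed through 5 nuclear transcripts, of which MEG3 was at 0 in 21 of the 24 libraries and at most 0.107 CPM. The other 4 were present, led by MALAT1. Their summed level was 11184 to 15703 CPM in the Ctrl soluble fraction and 6373 to 8630 CPM after NaAsO2, and 7087 to 8995 CPM in the Ctrl insoluble and 2510 to 3615 CPM in the NaAsO2 insoluble fraction. The sum was thus lower after NaAsO2, as were MALAT1 and NEAT1 in both fractions and KCNQ1OT1 in the insoluble fraction. SNHG14 overlapped between Ctrl and NaAsO2 in both fractions. Its means were 94.5 and 86.2 CPM in the soluble fraction and 149 and 146 CPM in the insoluble one. KCNQ1OT1 overlapped in the soluble fraction, at means of 16.5 CPM in Ctrl and 14.7 CPM after NaAsO2. The introns of MT1E, MT1G and SLC30A1 were higher after NaAsO2. In co-treated cells the sum was 9173 to 12022 CPM in the soluble fraction, against 8187 to 12806 CPM after RK-33. In the insoluble fraction the sum was 5585 to 6392 CPM, against 6730 to 7597 CPM after RK-33. MALAT1 made up most of the sum, and not all of these transcripts moved with it: KCNQ1OT1 stood at 32.0, 33.8 and 77.7 CPM in the co-treated soluble fraction, above the 14.5, 15.4 and 14.4 CPM after RK-33, and at 150.03, 148 and 110.4 CPM in the co-treated insoluble fraction, above 60.6, 69.1 and 63.3 CPM. NEAT1 stood at 554, 621 and 728 CPM in the co-treated soluble fraction, above 514, 508 and 421 CPM after RK-33. The part of nuclear RNA in the intron results was not tested.

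MT1E, MT1X and MT2A were lower in the insoluble than in the soluble fraction under all 4 treatments, and MT1G in NaAsO2 and co-treated cells, so that 3 of 6 tested members were lower in Ctrl, 4 after NaAsO2, 3 after RK-33 and 4 in co-treated cells. Among all tested genes, 10.7%, 16%, 15.2% and 13.1% were lower in these 4 comparisons. The libraries are compared as shares of their counts, and since no spike-in counts were used, the amounts of RNA in the 2 fractions of a lysate cannot be compared.

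MT2A was 2.99-fold lower in the insoluble fraction in Ctrl, 2.95-fold after NaAsO2, 3.55-fold after RK-33 and 2.62-fold in co-treated cells (log2 -1.58, -1.56, -1.83 and -1.39). MT1E was 2.92-fold, 2.95-fold, 3.64-fold and 3.04-fold lower, and MT1X 2.98-fold, 3.73-fold, 3.22-fold and 3.55-fold. The largest adjusted p among these 12 values was 8.73e-07. MT1G differed by -1.12 (adjusted p = 0.00418) after NaAsO2 and -1.40 (adjusted p = 0.000472) in co-treated cells, and its few counts in Ctrl (-0.60, interval -2.33 to 1.12) and after RK-33 (-0.32, interval -2.003 to 1.37) left the difference undetermined. After NaAsO2 it was under 2-fold without replicate 1 (-0.99) or 2 (-0.84) of the insoluble fraction, and at a minimum of 5 CPM (-0.98), and it was -1.49 without replicate 3 of that fraction.

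The sum of the 6 metallothioneins was lower by 1.57, 1.60, 1.83 and 1.51 on the log2 scale, and the size of this difference was not shown to depend on the treatment. The fraction effect of the sum in NaAsO2 minus that in Ctrl was -0.03 (interval -0.42 to 0.37), that of RK-33 minus Ctrl -0.26 (-0.65 to 0.13) and that of co-treated minus NaAsO2 cells 0.09 (-0.30 to 0.48). The median difference of the 6 tested members was -1.08, -1.34, -1.01 and -1.40 in Ctrl, NaAsO2, RK-33 and co-treated cells, and that of all tested genes -0.03, 0.03, -0.01 and -0.00037. All tested genes include genes of any length, while MT2A has 914 and MT1G 751 exon bases. A comparison with genes of like length is not given here.

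SLC30A1 did not pass 2-fold between fractions. Its differences were -0.48 (adjusted p = 0.0519) in Ctrl, -0.05 (adjusted p = 0.854) after NaAsO2, -0.33 (adjusted p = 0.162) after RK-33 and -0.58 (adjusted p = 0.0207) in co-treated cells, where the adjusted p was at most 0.0798 without replicate 1 or 2 of the insoluble or 3 of the soluble fraction. Without replicate 3 of the NaAsO2 insoluble fraction, the difference after NaAsO2 was -0.45 (adjusted p = 0.00622), that in Ctrl -0.53 (adjusted p = 0.000543) and that after RK-33 -0.37 (adjusted p = 0.00896). MTF1 moved the other way, with higher levels in the insoluble fraction: by 0.31 (adjusted p = 0.0429) in Ctrl, 1.16 (adjusted p = 4.31e-08) after NaAsO2, 0.76 (adjusted p = 1.87e-05) after RK-33 and 1.1 (adjusted p = 1.47e-07) in co-treated cells. It was past 2-fold after NaAsO2 and in co-treated cells, as were 14.6% and 10.0% of all tested genes, so that this call was a common one. When exon and intron counts were added, both differences were under 2-fold, at 0.98 and 0.88. The difference in Ctrl was then 0.10 (adjusted p = 0.507), and it missed the threshold with the likelihood ratio test (adjusted p = 0.0512) and when 1 of 15 libraries was left out.

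**Figure D5:**
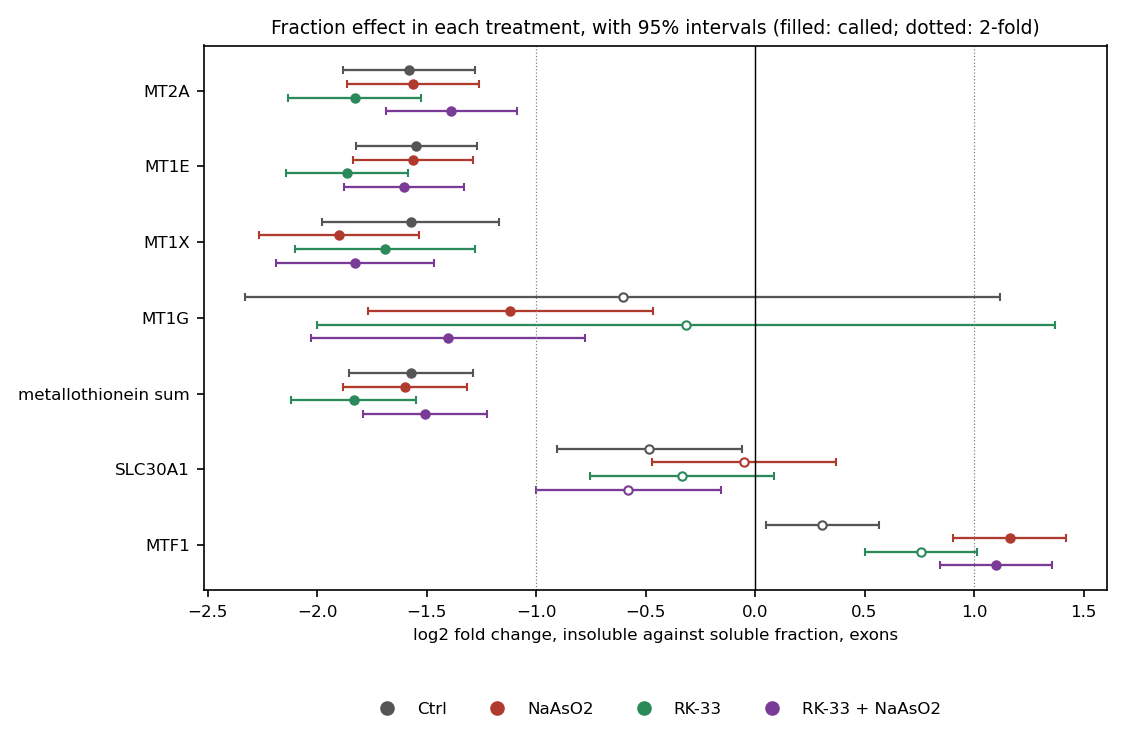
Log2 fold changes between the insoluble and the soluble fraction for each treatment, with 95% intervals, filled points for values past both thresholds and dotted lines at 2-fold. MT2A, MT1E and MT1X lie left of -1 under all 4 treatments, between -1.39 and -1.90, and MTF1 lies right of 0, between 0.31 and 1.16.

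The fraction effect of MTF1 was larger after NaAsO2 than in Ctrl by 0.86 (interval 0.49 to 1.22, adjusted p = 0.00121), and by 1.07 (adjusted p = 2.52e-06) without replicate 3 of the NaAsO2 insoluble fraction. It passed 2-fold, at 1.00 to 1.07, without that library, replicate 3 of the Ctrl insoluble, 2 of the Ctrl soluble, 2 of the co-treated insoluble, any of the co-treated soluble, 3 of the RK-33 insoluble or 2 of the RK-33 soluble fraction. With all libraries 0 members passed both thresholds with edgeR or DESeq2 and 1 had an unadjusted p under 0.05, as had 35.5% of all genes, where 9.56% of all tested genes passed the thresholds in either direction. For RK-33 against Ctrl the difference was 0.45 (adjusted p = 0.210). For the other 5 tested members the difference between NaAsO2 and Ctrl lay between -0.51 and 0.43, with adjusted p-values of 0.291 and above.

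Among introns, those of MT1E were lower in the insoluble fraction under all 4 treatments, by 1.61, 1.41, 1.70 and 1.53 on the log2 scale in Ctrl, NaAsO2, RK-33 and co-treated cells. Those of MT1G were lower by 1.28 after NaAsO2 and 1.18 in co-treated cells, and those of SLC30A1 by 1.30 and 1.01. Of the 4 members tested, 1, 3, 1 and 3 were thus called, where 12.3%, 5.92%, 15.2% and 8.61% of all introns tested were lower. When introns were scaled like exons, MT1E stayed past 2-fold after NaAsO2 (-1.11) and in co-treated cells (-1.31) and was under it in Ctrl (-0.94) and after RK-33 (-0.82). On that scale MT1G (-0.92 and -0.995) and SLC30A1 (-0.99 and -0.80) were under 2-fold after NaAsO2 and in co-treated cells. Leaving out replicate 2 of the NaAsO2 soluble (-0.98), replicate 3 of the co-treated insoluble (-0.97) or replicate 2 of the co-treated soluble fraction (-0.88) also took SLC30A1 in co-treated cells under 2-fold. MT1G fell under it after NaAsO2 without replicate 1 of the insoluble fraction (-0.99), was at -1.96 without replicate 3, and fell under it in co-treated cells without replicate 2 of the insoluble fraction (-0.93), and SLC30A1 in Ctrl passed it without replicate 1 of the insoluble fraction (-1.11).

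For the other genes of zinc transport, the 10 SLC30A exporters and 14 SLC39A importers were taken as a list, of which 20 were tested, SLC30A1 included. After NaAsO2, 0 passed the thresholds in the soluble fraction with edgeR, and 10 of the 20 had an unadjusted p under 0.05, against 29.1% of all tested genes. On adjusted p alone 5 of the 20 passed, against 13.3% of all tested genes. The insoluble fraction had 0 that rose and 2 that fell, where 8.37% of all genes fell: SLC39A6 (log2 -1.15, adjusted p = 0.000214), which brings zinc into the cytosol, and SLC30A7 (-1.08, adjusted p = 0.000224), which loads the secretory pathway. Both calls rested on replicate 3 of the NaAsO2 insoluble fraction, without which the changes were -0.76 and -0.72. SLC30A7 was also just under 2-fold without any 1 of 6 other libraries. The median change of the 20 genes was -0.44 in the soluble fraction, against 0.03 for all tested genes, and -0.12 against -0.02 in the insoluble fraction. After RK-33, 0 passed in the soluble fraction. There 9 of 20 had an unadjusted p under 0.05, against 17.6% of all genes, and 5 an adjusted p under 0.05, against 5.33%. In the insoluble fraction 2 fell, against 1.16% of all genes: SLC39A6 (-1.13, adjusted p = 0.000816), and SLC30A2 (-2.16, adjusted p = 0.0189), which missed the threshold without replicate 1 of Ctrl or replicate 1 or 3 of RK-33.

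Co-treated cells differed from RK-33 cells in 2 of the 20 list genes in the soluble fraction, SLC39A4 (1.26, adjusted p = 0.0298) and SLC30A2 (1.75, adjusted p = 0.0187), and in SLC30A2 alone in the insoluble fraction (4.30, adjusted p = 9.36e-06). Among all tested genes, 1.83% were higher in this soluble comparison and 1.23% in the insoluble one. The soluble calls of both genes were lost without any 1 of the 3 RK-33 soluble libraries or replicate 3 of the co-treated soluble fraction, and that of SLC39A4 also without replicate 2 of the latter, with adjusted p-values of up to 0.158. Compared with NaAsO2 cells, 0 list genes of the soluble fraction passed (3 of 20 at an unadjusted p under 0.05, against 22.4% of all genes), and in the insoluble fraction SLC30A2 did (1.22, adjusted p = 0.0338), but not without replicate 1 or 2 of NaAsO2 or replicate 1 or 3 of the co-treated cells. In that insoluble comparison 3.11% of all tested genes were higher. SLC30A2, an exporter that loads vesicles with zinc, had a mean of 2.61 CPM, so these changes rest on a low level. It was named after its values were seen, as was SLC39A5.

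Between fractions, 1 list gene was higher in the insoluble fraction in Ctrl (SLC39A5, 1.90), where 11.8% of all genes were higher. After NaAsO2, 3 of 20 were lower (SLC30A9, -1.10; SLC39A6, -1.12; SLC30A7, -1.05), a share close to that of all genes given above, and without replicate 3 of the NaAsO2 insoluble fraction these were -0.86, -0.76 and -0.72. SLC30A7 was also under 2-fold without any 1 of 7 other libraries. After RK-33, SLC30A2 was lower (-1.85, lost without replicate 1 of the insoluble fraction), where 15.2% of all genes were lower. In co-treated cells SLC39A4 was lower (-1.40) and SLC39A5 higher (1.31, lost without replicate 1 or 3 of either fraction). Of all genes, 13.1% were lower there and 10.0% higher. The fraction effect of SLC30A4 differed between NaAsO2 and Ctrl by 1.33 (adjusted p = 0.00393), and by 0.93 without replicate 3 of the NaAsO2 insoluble fraction. Against this 1 of 20, 9.56% of all tested genes passed the thresholds for that difference in either direction. The effect of NaAsO2 in the insoluble fraction was larger with RK-33 for SLC39A6 (1.26), SLC30A7 (1.01) and SLC30A2 (3.39), a count to be set against the 2.48% of all genes given above. Without that library SLC39A6 was 0.88 and SLC30A7 0.65, and SLC30A7 missed a threshold in 15 of the 24 cases with a library left out. In the soluble fraction 0 list genes passed, with 8 of 20 at an unadjusted p under 0.05, against 17.6% of all genes.

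Copper, the other metal held by metallothioneins, was covered by 13 genes, of which 11 were tested. In the 8 comparisons of treatments, 0 of the 11 passed the thresholds with edgeR, and between 1 and 5 had an unadjusted p under 0.05, where 14.9% (co-treated against RK-33 cells, soluble) to 51.0% (NaAsO2 against Ctrl, insoluble) of all genes did, with 20.4% for co-treated against RK-33 cells in the insoluble fraction. Between fractions, SOD1, a copper and zinc superoxide dismutase, and the copper carrier ATOX1 were lower in the insoluble fraction under all 4 treatments, by 1.26 and 1.47 on the log2 scale in Ctrl, while the copper pump ATP7A was 1.23 higher in Ctrl. COMMD1, a factor of copper handling, was lower under all 4 treatments (by 1.22 in Ctrl and 2.18 after NaAsO2), and COX11, which serves the copper site of cytochrome oxidase, was lower after NaAsO2 (-1.30) and in co-treated cells (-1.10). The copper pump ATP7B was higher after NaAsO2 (1.37), after RK-33 (1.31) and in co-treated cells (1.38), and ATP7A also after RK-33 (1.31). The numbers of list genes higher and lower were 1 and 4 in Ctrl, 1 and 5 after NaAsO2, 2 and 4 after RK-33 and 1 and 5 in co-treated cells. Of all genes, 11.8% were higher and 10.7% lower in Ctrl, 14.6% and 16% after NaAsO2, 15.5% and 15.2% after RK-33 and 10.0% and 13.1% in co-treated cells. The list median lay at -0.56 in Ctrl, against -0.03 for all tested genes.

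The order of the 8 groups showed how the members parted. For the metallothionein sum it ran from 2733 ± 81.1 CPM in the co-treated soluble fraction to 1921 ± 61.0 after NaAsO2, then to 1013 ± 218 after RK-33, 960.3 ± 92.9 in the co-treated insoluble fraction and 932 ± 94.1 in the Ctrl soluble fraction, whose ranges overlapped. It ended with 634 ± 69.9 in the NaAsO2 insoluble fraction and with 313 ± 15.5 in Ctrl and 284 ± 28.9 after RK-33, which overlapped. SLC30A1 separated only the co-treated soluble fraction, at 1229.7 ± 104 CPM, from the other 7 groups, each of which overlapped with the next in order. For MTF1 the insoluble fractions of NaAsO2 (94.1 ± 15.9), co-treated (88.7 ± 7.60) and RK-33 cells (83.1 ± 5.86 CPM) overlapped and stood above the other groups.

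Across the 24 libraries and 10260 genes of a mean level of 10 CPM or more, the genes most like each member were found by Pearson's r of log2 CPM, as a description. Libraries share treatment, fraction and depth, so r is high for many pairs. Most like MT1X were HMOX1 (r = 0.968), MT1G (0.951), the transcription factor gene SNAI1 (0.940), MT1E (0.935) and TOB1 (0.919). Among the genes most like MT2A were PHLDA2 (0.967), GABARAPL1 (0.965), SRSF3 (0.963) and NUDT4 (0.960), and no other metallothionein. SLC30A1 was most like BAMBI (0.918), TNFSF9 (0.879), MIR23AHG (0.876), HEXIM1 (0.876) and C11orf96 (0.873), and MTF1 most like ITPRID2 (0.977), FNIP2 (0.973), ZNF699 (0.972), CYTH3 (0.972) and PHF20 (0.971).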

How the data were processed

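Directional libraries of rRNA-depleted RNA from both fractions of U2OS lysates were read from both ends. Per the study's methods, the authors aligned reads with STAR 2.7.2b to GRCh38.p13 with GENCODE release 40 and counted them with featureCounts over genes and over introns. Per the file headers, fragments were counted per gene name with no option set for strand or for multiply aligned reads. The deposited values used here are these raw counts of exons and introns. The tables of circular RNAs and the spike-in were not used here. Only unnormalised counts entered the tests.

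Exon and intron counts were fitted separately with edgeR 4.0.16 (R 4.3.3) over all 24 libraries, with 8 groups, TMM factors, genes of a mean of at least 1 CPM, and the quasi-likelihood test. P-values were adjusted over all genes tested by Benjamini-Hochberg. A gene was called when it changed by 2-fold or more with an adjusted p under 0.05. Alternatives were the likelihood ratio test of the study and DESeq2 1.42.0. The counts of the 6 metallothioneins were also added into 1 row and fitted with all other genes. CPM values are scaled by TMM factors. The steps were tested on simulated data.

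Named were all 8 members, other metallothionein genes with any count, up to 3 genes per direction, comparison and list that passed both limits with the smallest adjusted p and averaged 10 CPM or more, the 5 genes most like MT2A, MT1X, SLC30A1 and MTF1, and 3 genes for the arsenite label. A gene that met this rule is not reported here. The members and lists were chosen with earlier results of these data known. The 24 pairs of replicates had chi-squares of 2.39 to 142 per degree of freedom and none was identical. The study's methods state that the experiment was repeated 3 times under every condition. Still, nothing ties the replicates to separate cultures, so p-values measure the spread between these samples, which may be in part technical. Depths and the limit of 3 counts cover counting error only. Deviations from the group means correlated at 0.490, 0.427 and 0.694 between NaAsO2 and co-treated insoluble libraries of the same number, so a blocked fit of these groups, chosen after seeing the data, is given beside that comparison. The deviations of a group add up to 0, so these 3 correlations are not independent. In no other pair of groups were all 3 over 0.1.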

Additional observations from a re-analysis of the deposited data

Results flagged for a closer look

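The effects of NaAsO2 with and without RK-33, and of the fraction with and without NaAsO2, differed by a test of the difference itself for 7 values (edgeR, adjusted p under 0.05). In the insoluble fraction the NaAsO2 effect was larger with RK-33 by 1.14 for MT1X, 0.79 for MT2A, 0.61 for MT1E and 0.74 for the metallothionein sum, and for MTF1 the difference was -0.65. In the soluble fraction the NaAsO2 effect on MT1X was larger with RK-33 by 0.95. The fraction effect on MTF1 was larger after NaAsO2 than in Ctrl by 0.86. All are on the log2 scale. On the compared groups alone, the 5 insoluble differences with and without RK-33 missed the threshold (adjusted p of 0.0731 to 0.170). Groups of 3 libraries are too small for a test of single outlying samples.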

How the results depend on the processing

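The number of members called was within 1.5 times the reported one in 175 of 195 results of other settings and in 387 of 408 with a library left out. With no limit on the fold change it was 5 for NaAsO2 in the insoluble fraction, 1 for RK-33 in the insoluble fraction, 3 and 2 for co-treated against NaAsO2 cells (soluble and insoluble), 5 for co-treated against RK-33 cells (soluble), 1 for the change of the fraction effect with NaAsO2, and 1 (soluble) and 4 (insoluble) for the NaAsO2 effect with against without RK-33. With a limit of 2 on the log2 scale it was 0 for the 4 fraction comparisons and for the last of these. The soluble NaAsO2 effect with against without RK-33 had 2 members with library size alone, at a minimum of 5 CPM or with the compared groups alone, and 1 with DESeq2 or the likelihood ratio test, and the insoluble one had 0 with the compared groups alone. With a library left out, these counts ran from 0 to 2 and from 0 to 1, and that of the fraction effect with NaAsO2 from 0 to 1. The metallothionein sum after NaAsO2 was 0.86 with library size alone, 0.95 at 5 CPM and 0.98 with the compared groups alone in the soluble fraction, and 0.92 with library size alone and 1.00 at 5 CPM in the insoluble fraction. Library size alone moved the median of all genes to -0.15 and -0.10 in these comparisons. A limit of 2 left the sums of 1.04, 1.02, 1.43, 1.76, -1.57, -1.60, -1.83 and -1.51 without a call, and no limit called those of 0.51, 0.60 and 0.74. The change of the fraction effect on the sum with NaAsO2 turned to 0.10 with the compared groups alone, 0.0187 with DESeq2, 0.0188 with RLE factors, 0.15 with exon plus intron counts, 0.0654 with library size alone, 0.0652 with no filter and 0.0436 at 5 CPM. With a library left out, the sum ran from 0.93 to 1.12 and from 0.98 to 1.13 after NaAsO2 (soluble and insoluble), from -0.044 to 0.27 after RK-33 (soluble), and the change of its fraction effect from -0.089 to 0.16 with NaAsO2 and from -0.054 to 0.14 between co-treated and NaAsO2 cells. SLC30A1 after NaAsO2 in the soluble fraction was 0.036 with exon and intron counts added and in the insoluble fraction ran from -0.055 to 0.57 with a library left out. Between fractions after NaAsO2 it was 0.018 with the compared groups alone, 0.0114 with DESeq2, 0.0112 with RLE factors and 0.086 at 5 CPM, and ran from -0.45 to 0.21 with a library left out. With exon scaling, the intron differences between fractions after RK-33 were 0.039 for SLC30A1 and 0.37 for MTF1. The cause of these shifts was not tested.

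Replicate numbers were not shown to pair the libraries beyond the NaAsO2 and co-treated insoluble groups: deviations correlated over 0.1 in 4 of 18 pairs of the same number in the soluble and 5 of 18 in the insoluble fraction, and in 2 of 12 pairs of fractions. With the replicate block over all libraries, the number of members called for the soluble NaAsO2 effect with against without RK-33 was 1, SLC30A1 at 1.01 (edgeR, adjusted p = 0.0353). With it, no other call past both thresholds changed. The 2 fractions of a lysate are paired by design, and the study compared them within a treatment by a paired t-test. The labels name no lysate, however, and the fraction comparisons were fitted unpaired here. With treatment and replicate number taken as the lysate and fitted as a block, 37 results of these comparisons counted as the same and 0 as moved. With the replicate block in the NaAsO2 and co-treated insoluble groups alone, the number of members called was 0, as without it. Depth limits MT1F, MT1M and the Ctrl and RK-33 levels of MT1G.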
